A study of Brassica napus with 23 samples.

Results

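The 200 genes described here are the steadiest among the Brassica napus genes of middle level in this study, in the sense that their group means took nearly the same share of the counts in shoots and roots, with PA23 and without, at 7 d and at 24 h. They were chosen by their measured levels: each gene's count was divided by the library's total and scaled to CPM (counts per M counts of the library, where M stands for mega), and the libraries of at least 2 M counts were averaged within each of 8 groups. Of 101040 gene IDs, 4077 had all 8 group means between 20 and 300 CPM, and the 200 with the smallest ratio of the highest to the lowest group mean were taken. The levels in those libraries, and the differences between the 8 groups, are therefore what defined the genes and are given as a description.

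Brassica napus (oilseed rape) is an allotetraploid crop that carries an A and a C subgenome. The plants were treated with Pseudomonas chlororaphis PA23, a bacterium used for biocontrol of plant disease, or with LB broth as the negative control, and shoots and roots were taken 7 d or 24 h after treatment. By the protocols the PA23 treatment was 15 mL of a bacterial culture, given at day 7 of a growth of 14 d; that age does not match a harvest 24 h after treatment, so the age of the 24 h plants is uncertain. The groups were PA23-treated shoots at 7 d, control shoots at 7 d, PA23-treated shoots at 24 h, control shoots at 24 h, and the same 4 for roots. Each held 3 libraries of total RNA except control roots at 24 h, with 2. The sources used here name no cultivar and do not say whether replicates came from separate plants, so p-values measure the spread between these libraries, which can be technical in part.

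In plants as in other organisms, genes whose transcripts hold a constant level across tissues and treatments serve as internal references for quantitative PCR, against which the other genes are read. Housekeeping functions such as protein turnover, RNA processing and vesicle traffic are typical of such genes. A CPM value is a share of a library, so a gene that keeps its share does so relative to all the other transcripts of that tissue. Leaves give a large part of their messenger RNA to a few photosynthesis genes, and the share left for all other genes is smaller there than in roots.

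Depth ranged from 0.622 to 721 M counts, with a median of 45.8 M. The choice used 17 libraries of 16.8 M or more and left out 6 of 0.622 to 1.7 M, so each group was averaged over 2 libraries, and PA23-treated roots at 24 h over 3. The 100 most abundant genes of a library took 13.2% to 21.9% of the counts in shoots and 6.73% to 8.37% in roots. Among counts of 1 to 10, 18.9% to 33.6% were odd in 22 libraries, a pattern that arises where each mate of a pair adds 1 count, and 57.6% in PA23-treated roots at 7 d, replicate 1. Every shoot library carries the same number at the head of its description, and root libraries carry that number or a second one; the sources used here do not say what these numbers mean. In 1 pair of replicates the counts differed by no more than counting noise: replicates 2 and 3 of control shoots at 7 d differed by a coefficient of variation (CV) of 5.23%, against 5.43% for counting noise where both mates of a pair are counted. They may be 1 library in part. Only replicate 3 entered the choice, and the shoot to root and PA23 to control values of the left-out libraries are also given without replicate 2. Replicates 1 and 3 of PA23-treated shoots at 7 d were nearly as close, at 5.79% against 5.55%. Both entered the choice and together give the mean of that group, which may thus rest on replicates that are not fully separate.

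The 200 genes together took between 0.91% and 1.27% of the counts of a library, with a median of 1.07% over all 23 libraries. None had a count of 0 in any library. Their ratios of highest to lowest group mean ran from 1.17 to 1.35, with a median of 1.29, and the other 3877 genes in the same range of levels had a median of 1.95 and reached 14.1. The list ends in a dense part of the distribution. The last genes inside it were BnaC07g08870D at 1.349, BnaC03g22380D at 1.349 and BnaC04g39150D at 1.351. The first genes outside were BnaC09g48980D at 1.352, BnaC09g53700D at 1.352 and BnaA07g34690D at 1.353, so the edge separates genes that differ in the third decimal.

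BnaUnng00940D had the smallest ratio. It lies on an unplaced sequence (Unn_random, 1081957 to 1088827, plus strand, with coordinates as in the deposited table, for which the sources used here name no genome build). In shoots its libraries measured 42.7 and 42.6 CPM with PA23 and 51.3 and 39.5 CPM without at 7 d, and 49.0 and 38.6 CPM with PA23 and 44.2 and 44.5 CPM without at 24 h. In roots they measured 32.2 and 48.4 CPM with PA23 and 45.6 and 35.8 CPM without at 7 d, and 33.1, 45.3 and 42.7 CPM with PA23 and 49.9 and 44.0 CPM without at 24 h. The 8 group means lay between 40.3 and 47.0 CPM, a narrower range than the 32.2 to 48.4 CPM of the replicates of PA23-treated roots at 7 d alone. Its replicate CV was 16.0%, so the agreement of the means is closer than that of the libraries behind them.

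BnaC03g29790D (C03, 17921403 to 17923296, plus strand) was steady library by library in the 17 deep libraries as well as in its means. It measured 21.9 and 21.2 CPM in PA23-treated shoots at 7 d, 22.7 and 25.4 CPM in control shoots at 7 d, 24.4 and 20.5 CPM in PA23-treated shoots at 24 h and 26.7 and 23.2 CPM in control shoots at 24 h. In roots it measured 25.6 and 25.1 CPM with PA23 and 23.6 and 24.2 CPM without at 7 d, and 23.2, 24.2 and 23.4 CPM with PA23 and 24.4 and 23.9 CPM without at 24 h. The 8 shoot libraries spanned 20.5 to 26.7 CPM, and all 9 root libraries lay inside that range, at 23.2 to 25.6 CPM. The shallow libraries were less even, at 9.06 CPM (8 counts) in PA23-treated and 17.6 CPM in control shoots at 7 d, 27.3 CPM in PA23-treated and 17 CPM in control shoots at 24 h, and 30.9 CPM in PA23-treated and 38.6 CPM in control roots at 7 d. Their mean shoot level was 0.511 times their mean root level. BnaC04g28960D (C04, 30293711 to 30296674, plus strand) was also even in the deep libraries, with a replicate CV of 4.99%. Its group means were 23 and 21.9 CPM in shoots at 7 d with PA23 and without, 21.1 and 22.7 CPM at 24 h, 22.5 and 23.7 CPM in roots at 7 d, and 24.3 and 24.9 CPM in roots at 24 h.

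BnaC03g72900D (C03_random, 1111620 to 1113070, minus strand) was the most abundant per base of the 10 steadiest genes, at 37.8 CPM per kb of gene span. It measured 54.4 and 55.0 CPM in PA23-treated shoots at 7 d, 51.8 and 53.2 CPM in control shoots at 7 d, 54.4 and 48.5 CPM in PA23-treated shoots at 24 h and 56.8 and 54.2 CPM in control shoots at 24 h. Roots gave 52.0 and 56.9 CPM with PA23 and 64.8 and 54.2 CPM without at 7 d, and 47.5, 52.4 and 52.8 CPM with PA23 and 54.8 and 64.5 CPM without at 24 h. A replicate of each control root group stood above all other libraries of this gene, and the values of the other libraries overlapped between groups. BnaC05g14520D (C05, 8547192 to 8550572, minus strand) had group means of 20.6 to 24.1 CPM, close to the lower limit of the range that the choice allowed.

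BnaC07g01200D (C07, 1818323 to 1821904, minus strand) had group means of 33.2 to 39.1 CPM, highest in PA23-treated roots at 24 h, where its 3 libraries measured 36.1, 39.9 and 41.2 CPM. BnaA02g28720D (A02, 21106696 to 21108853, minus strand) was highest in PA23-treated shoots at 24 h, at 54.9 and 47.3 CPM, and lowest in control shoots at 7 d, at 45.9 and 40.8 CPM. BnaA05g29540D (A05, 20587885 to 20591045, minus strand) was highest in PA23-treated shoots at 7 d, at 34.7 and 32.2 CPM, and lowest in control roots at 24 h, at 28.5 and 27.8 CPM. Which tissue and treatment was highest thus differed from gene to gene even among the steadiest.

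BnaC03g23800D (C03, 13278702 to 13280761, minus strand) shows how an average can hide unlike replicates. Its means in shoots at 7 d were 26.2 CPM with PA23 and 27.1 CPM in controls, but the control libraries behind the second mean measured 16.7 and 37.5 CPM. Its highest library was 2.25 times its lowest, while its highest group mean was 1.18 times its lowest. BnaCnng48870D (Cnn_random, 48304981 to 48306807, minus strand) completes the 10 steadiest, with group means of 24.3 to 28.7 CPM and a replicate CV of 9.4%.

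**Figure D1:**
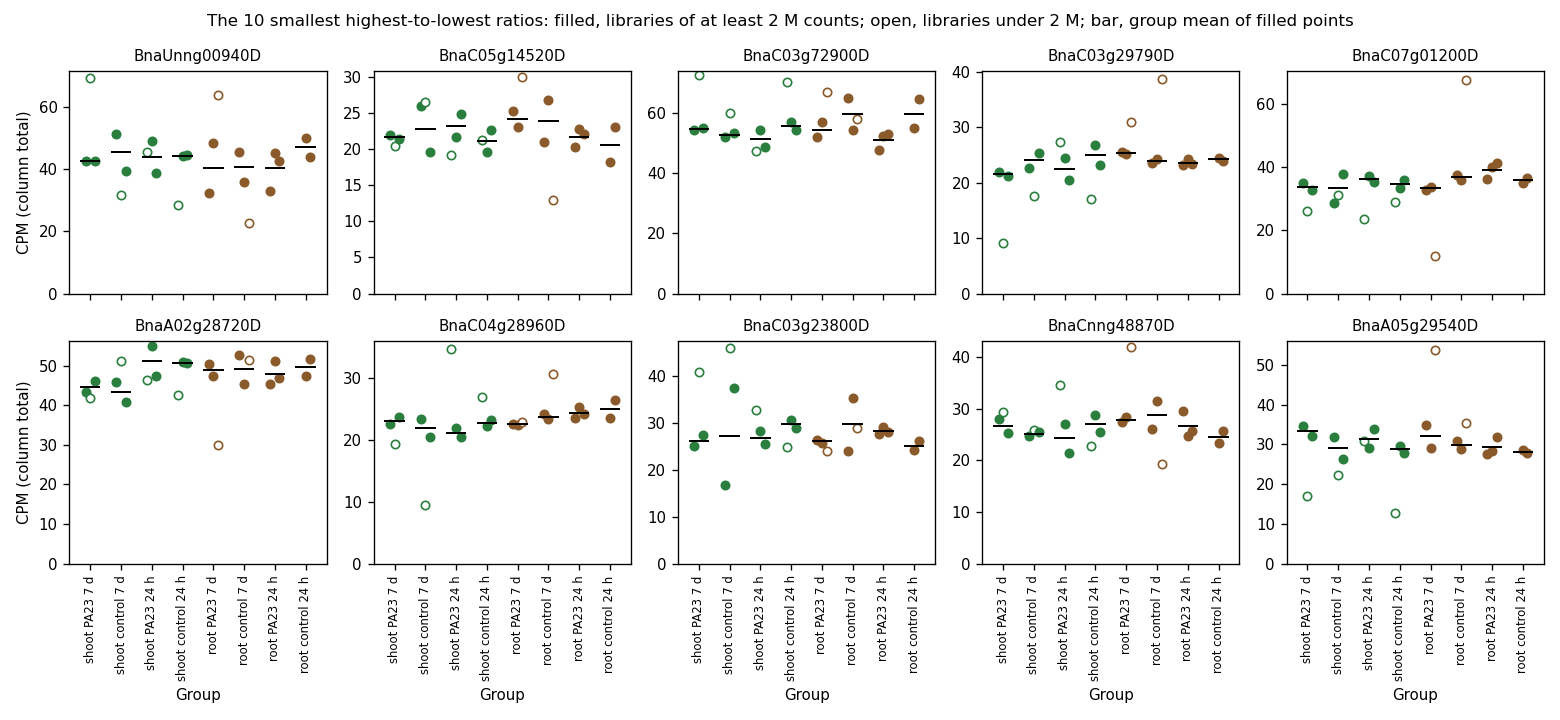
Level of the 10 genes with the smallest ratios, in CPM of the library total, for each library by group, shoots in green and roots in brown. Filled points are the 17 libraries used for the choice, bars their group means, and open points the 6 libraries under 2 M counts; the bars are nearly level across each panel while the open points scatter more widely, as for BnaC07g01200D at 12.0 and 67.5 CPM in roots at 7 d.

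The genes' names could not be given. Symbols of the Da-Ae assembly in RefSeq matched 3347 (3.31%) of all IDs in the table and 3 of the 200 (1.5%): BnaC03g74530D, BnaC02g19140D and BnaC03g43430D. Each is listed there as protein coding, with its ID as its only symbol, so no function can be stated. BnaC03g74530D had group means of 21.3 to 26.2 CPM and BnaC03g43430D of 23.1 to 29.0 CPM. BnaC02g19140D had means of 25.2 to 31.6 CPM, highest in control shoots at 7 d. Whether the housekeeping families used as references in other plants are among the 200 was therefore not tested.

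The steady genes leaned to lower levels and to gene spans of middle size. Their mean over the 8 groups ran from 21.5 to 250 CPM with a median of 39.0 CPM, against a median of 54.1 CPM for the other 3877 genes. Of 1211 genes with a mean of 20 to 40 CPM, 106 (8.75%) were on the list, against 61 of 1799 (3.39%) at 40 to 80 CPM and 33 of 1067 (3.09%) at 80 to 300 CPM. BnaC04g13200D was the most abundant of them, with a mean of 250 CPM and a ratio of 1.25. By construction a gene with a mean near 20 CPM is in the range only if none of its group means falls below that limit. How far this limit accounts for the larger share of low genes on the list was not tested.

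None of the 315 genes with a span under 1000 bases was among the 200, whose spans ran from 1128 to 12552 bases with a median of 2670 bases, against 2381 bases for the other genes. The share on the list was 4.58% at 1000 to 2000 bases, 6.49% at 2000 to 4000 bases and 4.02% at 4000 bases or more. Genes under 1000 bases had a median replicate CV of 20.9%, against 16.6%, 12.1% and 12.1% in the longer classes. Per kb of gene span, introns included, the steady genes had a median level of 14.4 CPM and the others 23.4 CPM. The part of level and span in the membership was not tested.

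The 200 were spread over the genome. There were 86 on the A subgenome, 113 on the C subgenome and 1 on a sequence of neither, so that A genes made up 43.2% of those assigned, against 48.4% of the other 3877 genes and 44.2% of all IDs. All 19 chromosomes held at least 2. On A06, 12 of 169 genes in the range (7.1%) were on the list, and on A01 2 of 164 (1.22%). No steady genes were next to each other, the closest pair, BnaAnng12550D and BnaAnng12660D, having 10 genes between them. None overlapped another gene of the table. How the counting treated reads common to very similar A and C copies is not stated, so the level of any 1 copy is uncertain.

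Among the groups, control roots at 24 h were most often the highest and PA23-treated shoots at 7 d most often the lowest, as they were for the other 3877 genes. Control roots at 24 h held the highest mean of 53 of the 200 genes, PA23-treated shoots at 24 h of 37, control shoots at 7 d of 32, and the other 5 groups of 6 to 24 each. PA23-treated shoots at 7 d held the lowest mean of 76 genes and PA23-treated roots at 24 h of 39. Of the other 3877 genes, 1232 were highest in control roots at 24 h, 377 in PA23-treated and 235 in control shoots at these same harvests, 24 h and 7 d. Among those genes 1724 were lowest in PA23-treated shoots at 7 d and 564 in PA23-treated roots at 24 h. In PA23-treated shoots at 7 d the steady genes stood at a median of 91.4% of their own mean over the 8 groups, and in the other 7 groups at 97.9% to 104%. The other 3877 genes stood at a median of 77.2% in PA23-treated shoots at 7 d and 122% in control roots at 24 h. Their medians were 84.9% to 91.1% in the other shoot groups and 109% to 115% in the other root groups.

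Averaged over treatments and harvests, the shoot level of the steady genes was a median of 0.977 times the root level, with a range of 0.828 to 1.17, and 162 of 200 (81%) were within 10% of equal. Of the other genes 12.6% were, at a median of 0.751. The ratio of PA23 to control had a median of 0.978 and lay within 10% of equal for 197 genes (98.5%), against 88.1% of the others. The ratio of 7 d to 24 h had a median of 0.971 and lay within 10% for 166 genes (83%), against 56.3% of the others. The choice left its mark mostly on the difference between shoot and root, which is where the other genes differed most.

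This evenness between shoot and root holds for shares of the library total and turned under both other scalings tried. TMM scaling, which sets libraries level on the genes that change least as a group, multiplied the shoot totals by 0.752 to 0.928 and the root totals by 1.09 to 1.25 in the 17 libraries. On that scale all 200 steady genes were higher in shoots than in roots, by 1.24 to 1.77 times with a median of 1.45, and with RLE, the size factors of DESeq2, the median shoot level was 150% of the root level. All genes of the 20 to 300 CPM range moved the same way as a set, to a median shoot level of 114% of the root level with TMM and 118% with RLE. BnaUnng00940D, for example, had TMM-scaled group means of 55.6 and 53.9 CPM in shoots at 7 d with PA23 and without, 53.5 and 54.5 CPM in shoots at 24 h, 32.3 and 33.8 CPM in roots at 7 d, and 34.1 and 38.7 CPM in roots at 24 h. Its shoot and root means did not overlap on the TMM scale, and on library totals they did.

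None of the 200 was among the 200 steadiest genes when the same rule was run on TMM or on RLE values. On the TMM scale 162 of them stayed in the range of 20 to 300 CPM with 4617 genes in all, the best placed stood 506th in the order of ratios and the median place was 2342. Their median ratio on that scale was 1.74, and that of all genes in the range 1.72. BnaC01g40000D had the lowest, 1.35, with TMM-scaled means of 99.4 to 114 CPM in the 4 shoot groups and 84.2 to 84.5 CPM in the 4 root groups. The 200 genes that the rule took on the TMM scale had, on library totals, shoot levels at a median of 0.662 times their root levels.

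**Figure D2:**
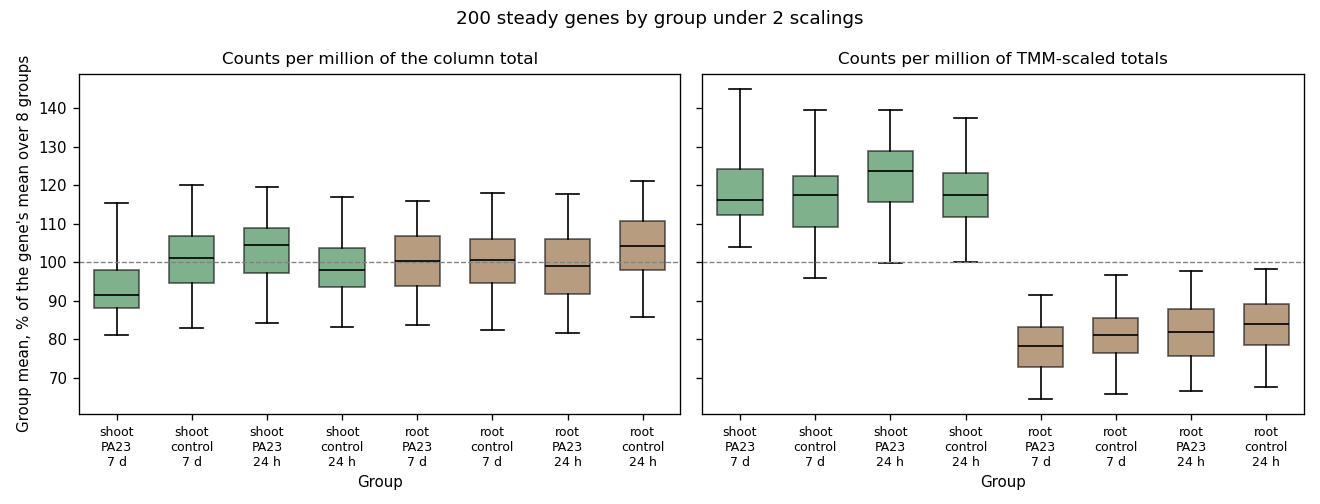
Group means of the 200 steady genes as a percentage of each gene's own mean over the 8 groups, scaled to library totals (left) and to TMM-scaled totals (right), with boxes for the middle 50%, a line for the median and whiskers for the full range. On library totals the medians lie between 91.4% and 104%, and on the TMM scale all 4 shoot medians, at 116% to 124%, stand above all 4 root medians, at 78.2% to 84%.

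Within a tissue, the size of the spread between group means depended little on the scaling. Over the 4 shoot groups the highest mean was a median of 1.21 times the lowest on library totals and 1.18 times on the TMM scale, and over the 4 root groups 1.19 and 1.2 times. The other 3877 genes had medians of 1.31 and 1.27 in shoots and of 1.34 and 1.35 in roots. The median spread over treatments and harvests inside a tissue was thus much the same by either scaling. The standing of single groups was not. On library totals PA23-treated shoots at 7 d stood at a median of 91.4%, against 97.9% to 104% in the other shoot groups. With TMM they stood at 116%, against 117% to 124%.

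Library by library, 1 group stood apart. In control shoots at 7 d the steady genes had a median of 117% of their own 17-library mean in replicate 1 and of 82.8% in replicate 3. Replicate 1 was the highest of the 17 libraries for 81 genes and replicate 3 the lowest for 98. The ratio of replicate 1 to replicate 3 had a median of 1.41 and exceeded 1 for 158 of 200 genes, running from 0.402 to 2.99. The other genes of the range moved alike, with a median of 1.4. The 100 most abundant genes took 13.2% of the counts in replicate 1 and 21.7% in replicate 3, and with TMM and RLE the median ratio of the steady genes was 1.15 and 1.08. The part of this difference in the choice can be read from the list without either library, which kept 112 of the 200 without replicate 1 and 126 without replicate 3.

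The steady genes with the largest replicate spread carried this difference. BnaA02g14510D (A02, 8210438 to 8211776, plus strand; replicate CV 27.4%) measured 106 and 100 CPM in PA23-treated shoots at 7 d, against 194 and 67.0 CPM in control shoots at 7 d, replicates 1 and 3. BnaC01g40000D (C01, 38401286 to 38405078, minus strand; CV 26.4%) measured 86.5 and 83.7 CPM with PA23 and 149 and 50 CPM in the same control libraries. In roots BnaC01g40000D measured 97.1 to 111 CPM in all 9 libraries. Its position on the list rests on the mean of a pair of libraries that differ 2.99 times.

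The genes with the smallest replicate spread, BnaA03g00220D and BnaA06g03810D, stood 162nd and 136th in the list. Those with the largest, BnaA02g14510D and BnaC01g40000D, stood 178th and 125th. BnaA03g00220D (A03, 87134 to 88687, plus strand; CV 4.3%) measured 29.7 and 27.4 CPM with PA23 and 27.2 and 25.5 CPM in controls in shoots at 7 d, and 25.2 and 26.3 CPM with PA23 and 21.4 and 21.9 CPM in controls at 24 h. In roots it measured 27.1 and 30.2 CPM with PA23 and 27.1 and 27.6 CPM in controls at 7 d, and 21.6, 22.8 and 22.2 CPM with PA23 and 25.1 and 27.0 CPM in controls at 24 h. Its small differences between groups were larger than its spread within them, with both control shoot libraries at 24 h below every deep shoot library of the other 3 groups. The gene was named for that small spread in these same libraries, so this is a description and not a test. BnaA06g03810D (A06, 2311943 to 2314466, plus strand; CV 4.6%) measured 40.3 to 47.3 CPM in the 8 shoot libraries and 34.3 to 41.9 CPM in the 9 root libraries. Over all 200, the replicate CV had a median of 11.6% and the highest library was a median of 1.59 times the lowest, against 13.8% and 2.44 times for the other genes.

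**Figure D3:**
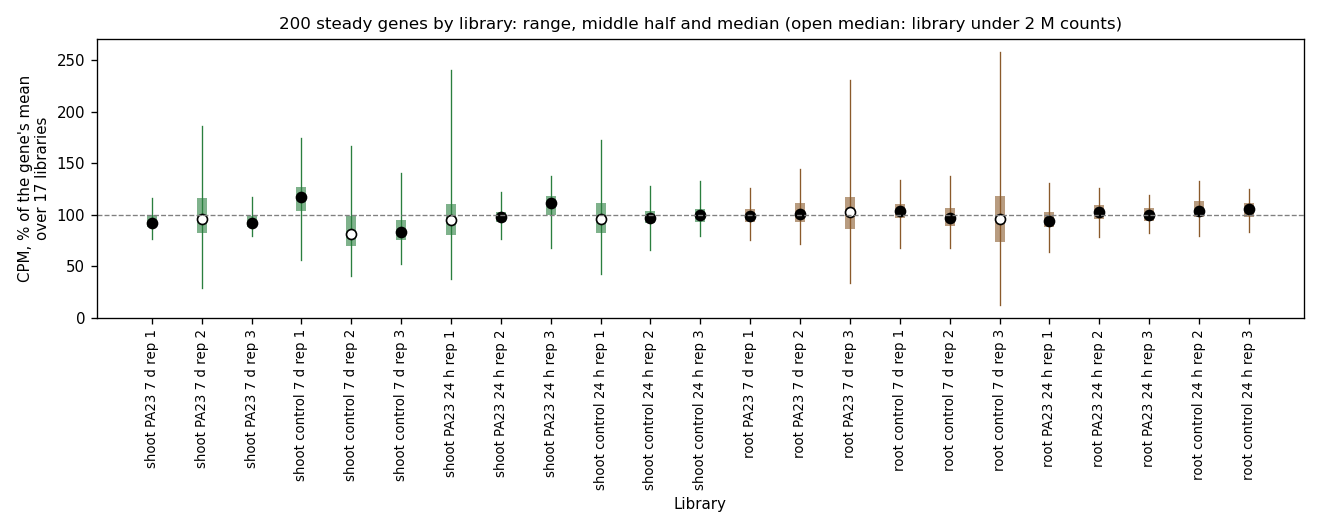
Level of the 200 steady genes in each of the 23 libraries, as a percentage of each gene's mean over the 17 deep libraries, with thin lines for the range, bars for the middle 50% and dots for the median (open dots mark libraries under 2 M counts). Replicate 1 of control shoots at 7 d has the highest median, 117%, replicates 2 and 3 of the same group the lowest, 81.5% and 82.8%, and the range is widest in the shallow libraries.

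The list changed with several choices. With all 23 libraries in the means 110 of the 200 were picked again, with the ratio of the highest to the lowest single library 114, with the counts of a group summed before scaling 152, and with limits of 10 and 600 CPM, which admit 10047 genes, 83. Leaving out any 1 library other than the control shoots at 7 d kept between 162 and 194. Only 41 of the 200 were kept whichever of the 17 libraries was left out, and 7 of the 10 steadiest were among them; BnaUnng00940D, BnaC05g14520D and BnaC03g23800D were not.

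**Figure D4:**
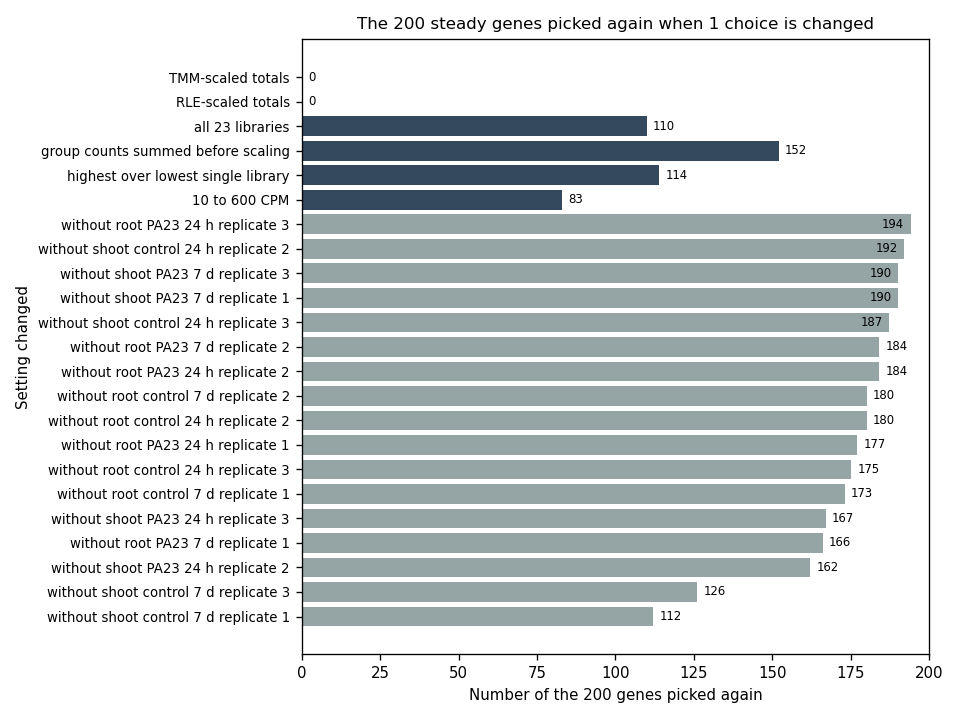
Number of the 200 steady genes that the same rule picks again when 1 choice is changed, from 0 with TMM-scaled or RLE-scaled totals to 194 without replicate 3 of PA23-treated roots at 24 h. Dark bars are changes of the rule and grey bars leave out 1 of the 17 libraries; the shortest grey bars are those of control shoots at 7 d.

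The fits across all genes used the same libraries as the choice together with the 6 shallow ones, so the counts below describe the genes and are not a test of their steadiness. With edgeR (quasi-likelihood test, TMM, Benjamini-Hochberg adjusted p under 0.05) no steady gene was called for PA23 against control in roots at 24 h, in roots at 7 d, in shoots at 24 h or in shoots at 7 d. Over all genes tested, 0.268%, 0%, 0% and 0.00177% were called in these comparisons, with no steady gene among them. At an unadjusted p under 0.05 edgeR gave 2 (1%), 11 (5.5%), 1 (0.5%) and 3 (1.5%) of the steady genes, 28.7%, 19.8%, 0.438% and 5.86% of the other genes of the range, and 13%, 6.97%, 1.03% and 4.72% of all genes. These background counts depended on the tool and on single libraries. DESeq2 called 653, 186, 0 and 25 genes. In roots at 24 h edgeR called 170 genes and 15 to 145 with a library left out, the fewest without replicate 3 of PA23-treated roots. In roots at 7 d it called 0 genes, and 548 without replicate 1 of PA23-treated roots, the library with the most odd counts. Without replicate 2 of control roots it called 81 genes. All PA23-treated root libraries at 7 d carried the second of the numbers in the descriptions, and among control roots at 7 d only replicate 2 did. Treatment and number thus nearly coincide in roots at 7 d, and the fit with 81 calls cannot tell them apart. In shoots at 7 d edgeR called 1 gene and 737 without replicate 1 of control shoots. No steady gene was called in any of these fits. For 7 d against 24 h no steady gene was called in control roots, where 1.72% of all genes were, or in control shoots, where 1.47% were. At an unadjusted p under 0.05 there were 13 (6.5%) and 2 (1%) steady genes, against 23.5% and 14.6% of the other genes of the range and 12.6% and 10.7% of all genes. DESeq2 called 0 of the 200 in all 6 comparisons. The log2 fold changes of the steady genes ran from -0.40 to 0.36 for PA23 in roots at 24 h, from -0.52 to 0.43 in roots at 7 d, from -0.55 to 0.46 in shoots at 24 h and from -0.42 to 0.51 in shoots at 7 d. Without replicate 1 of control roots at 7 d, 3 steady genes were called lower at 7 d in roots, where 1665 of 62372 genes were called. Without replicate 1 of control shoots at 7 d, 1 was called lower in shoots, where 1946 of 58462 genes were called.

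Between control shoots and control roots, edgeR with TMM called 57 of the 200 (28.5%) higher in shoots at 24 h, where 49% of all genes tested were called and 20.8% were called higher, and 115 (57.5%) higher at 7 d, where 54% were called and 23.9% called higher. Of the other 3877 genes of the range, 29.2% were called at 24 h, 664 of them higher, and 40.8% at 7 d, 999 of them higher. None of the 200 was called lower in shoots. Their median log2 fold changes were 0.42 at 24 h and 0.54 at 7 d, against -0.20 and -0.09 over all genes. With library totals alone, the scaling of the choice, 0 of the 200 were called at 24 h and 2, both lower in shoots, at 7 d, where 61.3% and 61.1% of all genes were called and, at 7 d, 44% were called lower. Of the other genes of the range 56.7% and 54% were called on library totals. The median log2 fold change of the steady genes was then -0.12 and -0.06, and that of all genes -0.75 and -0.66, so the change of scaling moved the median of all genes and that of the steady genes together. On library totals 30655 genes were called lower in shoots at 24 h and 11040 higher, and with TMM 19187 lower and 14131 higher. Without the 6 shallow libraries, TMM gave 128 steady genes higher in shoots at 24 h, with 37947 of 68587 genes called in either direction. The count was 9, with 27727 of 70341 genes called, without replicate 2 of control roots at 24 h, which leaves a single root library of that group that is assumed to vary like the others. The control libraries compared in that last fit all carried the number of the shoot libraries in their descriptions, and among the control libraries at 7 d that carried it, which leaves out replicate 2 of the roots, the count was 76, with 32024 of 67803 genes called.

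The 6 libraries under 2 M counts took no part in the choice. They come from the same groups as the deep libraries, and replicate 2 of control shoots at 7 d may share its source with replicate 3, which the choice used. They are 4 shoot and 2 root libraries, 3 of them PA23-treated: PA23-treated shoots at 7 d replicate 2, control shoots at 7 d replicate 2, PA23-treated shoots at 24 h replicate 1, control shoots at 24 h replicate 1, and replicate 3 of PA23-treated and of control roots at 7 d. Their median count per steady gene was 24.5 to 58, so counting error alone is large. In each of the 6, between 93% and 99.5% of the 200 lay within 2-fold of their own group's mean in the deep libraries, against 95.6% to 98% of the other genes. The shares were similar, although the median counts of the other genes were somewhat higher, at 36 to 64.

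On library totals, more of the steady genes than of the others stood close to equal between the tissues. Both left-out root libraries were from 7 d and the shoot libraries from both harvests. The shoot to root ratios of mean levels given here therefore mix tissue with harvest. In the left-out libraries the mean shoot level of the steady genes was a median of 0.941 times the root level, with a range of 0.446 to 2.13, and 173 of 200 (86.5%) lay within 1.5-fold of equal and 196 (98%) within 2-fold. Of the other 3877 genes, at a median of 0.703, 46.8% lay within 1.5-fold and 72.9% within 2-fold. Without replicate 2 of control shoots at 7 d the median was 0.96 for the steady genes and 0.733 for the others, and 85.5% and 49% lay within 1.5-fold. The highest of the 6 libraries was a median of 2.01 times the lowest for the steady genes and 2.63 times for the others, and without that replicate 1.88 and 2.39 times. With TMM the steady genes did not stand nearer to equal, since the size of their log2 fold change between the tissues, whatever its sign, had a median of 0.47, against 0.43 for the others. None of these differences between the 2 sets of genes was tested. BnaC07g01200D was among the least even, at 26.0 CPM in PA23-treated and 31.2 CPM in control shoots at 7 d, 23.7 CPM in PA23-treated and 29.0 CPM in control shoots at 24 h, and 12.0 CPM in PA23-treated and 67.5 CPM in control roots at 7 d, where the last pair of values rests on 12 and 42 counts. For PA23 against control 87% of the steady genes and 89.1% of the others lay within 1.5-fold, and 84.5% and 85.2% without replicate 2 of control shoots at 7 d.

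**Figure D5:**
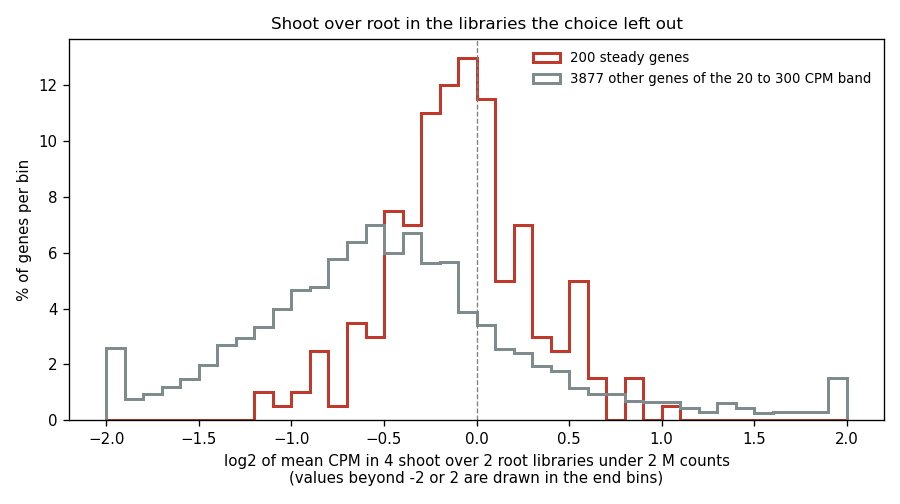
Distribution of the log2 ratio of the mean shoot level (4 libraries) to the mean root level (2 libraries) in the libraries under 2 M counts, on library totals, for the 200 steady genes (red) and the 3877 other genes of the 20 to 300 CPM range (grey), as a percentage of genes per bin. The red outline centres near 0, at a median ratio of 0.941, while the grey one is wider and centred at a median of 0.703. Both root libraries are from 7 d and the shoot libraries from 7 d and 24 h, so the ratio mixes tissue with harvest.

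Tested with edgeR on the left-out libraries alone, with tissue, harvest and treatment as terms and library totals as the scaling, 0 of the 200 differed between shoot and root at an adjusted p under 0.05, where 31.9% of all 26439 genes tested and 19.5% of the other genes of the range did. At an unadjusted p under 0.05 edgeR gave 5 of the 200 (2.5%), 32.1% of the other genes of the range and 43.2% of all. The median log2 fold change was -0.26 for the steady genes and -0.64 for the others. With harvest as a term, this tissue difference rests on the 7 d libraries, unlike the ratios of mean levels above. Without replicate 2 of control shoots at 7 d, a fit chosen after seeing the data, edgeR on library totals again called 0 of the 200, with 2 at an unadjusted p under 0.05, against 16.2% of all genes and 5.21% of the others of the range, and the medians were -0.14 and -0.49. With TMM scaling, 3 of the 200 (1.5%) were called, all higher in shoots, against 25.6% of all genes tested, 17.2% called higher, and 9.29% of the others of the range. At an unadjusted p under 0.05 there were 18 (9%), against 16.4% of the others and 34.5% of all genes. The median log2 fold change was then 0.46 for the steady genes, 0.07 for the others and close to 0 over all genes. In libraries that the choice had not used, the direction for the steady genes thus turned with the scaling too. DESeq2 called 5, all higher in shoots, and 6113 of the 26439 genes. Without replicate 2 of control shoots at 7 d, edgeR with TMM called 2 of the 200 and 4891 of 31955 genes, and the median of the steady genes was 0.49.

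BnaC09g43140D (C09, 44536186 to 44537936, plus strand) was one of the 3. In the left-out libraries it measured 82.7 CPM in PA23-treated and 85.8 CPM in control shoots at 7 d, 71.0 CPM in PA23-treated and 49.6 CPM in control shoots at 24 h, and 43.9 CPM in PA23-treated and 54.7 CPM in control roots at 7 d. Both shoot libraries at 7 d exceeded both root libraries, and the shoot libraries at 24 h overlapped them. Its log2 fold change with TMM was 1.42 (SE 0.44, edgeR adjusted p 0.0229), and on library totals 0.70 (adjusted p 0.232).

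BnaC02g19140D (C02, 15409093 to 15410461, minus strand) measured 34.0 CPM in PA23-treated and 34.1 CPM in control shoots at 7 d, 43.7 CPM in PA23-treated and 21.2 CPM in control shoots at 24 h, and 23.9 CPM in PA23-treated and 12.9 CPM in control roots at 7 d. The last value rests on 8 counts. Its log2 fold change was 1.59 (SE 0.54, edgeR adjusted p 0.0401) with TMM and 0.88 (adjusted p 0.226) on library totals. The third call, BnaA03g27430D (A03, 13519062 to 13522751, plus strand), is named after its values were seen. It measured 102 and 143 CPM in shoots at 7 d with PA23 and without, 116 and 121 CPM in shoots at 24 h, and 71.8 and 91.7 CPM in roots at 7 d, so all 4 shoot libraries exceeded both root libraries. Its log2 fold change was 1.22 (SE 0.43, edgeR adjusted p 0.0434) with TMM and 0.50 (adjusted p 0.371) on library totals.

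These calls were fragile. When each of the 6 libraries was left out in turn, BnaC09g43140D was called in 3 of 6 fits, BnaC02g19140D in 1 and BnaA03g27430D in 0, all with log2 fold changes of 1.03 or more. Without replicate 2 of control shoots at 7 d, which may share its source with a library of the choice, none of the 3 was called, with edgeR adjusted p of 0.258, 0.469 and 0.444.

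For treatment and harvest edgeR called no gene in the left-out libraries. With TMM 0 of the 200 and 0% of all genes were called for PA23 against control and for 7 d against 24 h. At an unadjusted p under 0.05 there were 3 steady genes (1.5%) for PA23 against control, with 1.68% of the other genes of the range and 2.48% of all genes, and 0 for 7 d against 24 h, with 1.52% and 2.63%. Over all genes, DESeq2 called 1 for PA23 against control and 3 for 7 d against 24 h, and edgeR with a library left out called up to 5 and up to 26. None of those was among the 200. The median size of the log2 fold change, whatever its sign, was 0.23 for PA23 against control and 0.25 for 7 d against 24 h in the steady genes, and 0.24 and 0.25 in the other genes of the range. Whether the steady genes and the others of the range differ in their response to treatment or harvest was not tested, and counts in these libraries were low. All left-out libraries at 24 h were shoots, so the harvest values rest on shoots alone.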

How the data were processed

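The authors deposited 1 table of raw counts, whole numbers for 101040 gene IDs in 23 libraries. HISAT2 and DESeq2 were used per the submitters' processing notes, with versions not given; genome build, annotation, counter and strand setting were not given in the sources. CPM values were computed on library totals. edgeR 4.0.16 in R 4.3.3 (filterByExpr, TMM, robust quasi-likelihood test, adjusted p under 0.05 by Benjamini and Hochberg) was fitted on all genes, per tissue for treatment and harvest, over all 8 groups for shoot against root, and additively (tissue, harvest, treatment) in the 6 libraries under 2 M counts. DESeq2 1.42.0, RLE, library totals, no filter, a replicate block and leaving out libraries were alternatives. The scripts were tested on simulated counts with known changes in both directions. Those counts held no broad difference between shoot and root, so that test does not bear on the choice of scaling. A standard error is the log2 fold change divided by the square root of F.

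The steady genes, the lists and the comparisons were chosen with earlier results of these data known. Genes named are the 10 smallest ratios, the last 3 inside and first 3 outside the list, those matched to RefSeq, the called genes with the largest changes in the libraries under 2 M counts, and the extremes of replicate CV; BnaC04g13200D, BnaAnng12550D, BnaAnng12660D and BnaA03g27430D were named after their values were seen. Gene lists, tissue markers and promoter motifs that need descriptions or sequences could not be filled and are not used here, so the tissue labels were not checked against markers. Deviations of same-numbered libraries from their group means had a median correlation of -0.03 over 15 root pairs and 0.08 over 18 shoot pairs. Libraries of unlike number gave 0.02 over 30 root pairs and -0.03 over 36 shoot pairs. The shallow libraries were included, and a second label in the titles does not always match the replicate number. The check therefore cannot exclude a pairing, and numbers were not taken as pairs.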

Additional observations from a re-analysis of the deposited data

How the results depend on the processing

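Of the comparisons, those between shoot and root moved with the processing. Control shoots against control roots at 24 h gave 57 steady genes higher in shoots with edgeR and TMM, 0 on library totals, 36 with no filter on low counts, 128 without the libraries under 2 M counts, 38 with a replicate block and 9 to 47 when each compared library was left out in turn. At 7 d the count was 115, against 2 lower in shoots on library totals, 97 with a replicate block and 65 to 128 with a library left out. In the 6 libraries under 2 M counts it was 3, against 0 on library totals, 1 with no filter, 5 with DESeq2, 13 with tissue as the only term and 1 to 6 with a library left out; on library totals without replicate 2 of control shoots at 7 d, a setting chosen after seeing the data, it was 0. For 7 d against 24 h, where 0 were called, leaving out a library gave 0 to 3 in control roots and 0 to 1 in control shoots. The replicate block left the 6 comparisons within a tissue at 0. No paired analysis was possible for the list because no test is made there. The shallow libraries form 3 PA23 and control pairs with the same number, tissue and harvest, which the fit with tissue and harvest as terms already holds apart. The list kept 0 of 200 with TMM and 0 with RLE, 110 with all 23 libraries, 114 with single libraries, 83 with limits of 10 and 600 CPM, and 112 to 194 with a library left out. Summing the 3 closest replicate pairs, an alternative chosen after seeing the data, gave 38 and 104 calls between shoot and root at 24 h and 7 d. The cause of these changes was not tested, apart from the scaling, which shifts all genes together. Depth limits the shallow libraries to median counts of 24.5 to 58 per steady gene, and counting errors are understated where both mates were counted.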
